A study of Mus musculus with 8 samples.

Results

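A set of 41 genes for the entry of proteins into the endoplasmic reticulum (ER), their folding and glycosylation there, and the unfolded protein response was followed through early B cell development and after loss of the transcription factor Erg. The genes were listed by symbol and role, with no threshold on a measured value but with earlier results of these data known. All 41 symbols matched an Entrez identifier among the 27179 genes of the count table. By role they comprised 5 sensors and transcription factors, 11 chaperones and co-chaperones, 3 disulfide isomerases, 7 subunits of the translocon and of its associated TRAP complex, 5 subunits of signal peptidase, 6 of oligosaccharyltransferase and 4 genes of ER-associated degradation.

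The libraries were bulk RNA sequencing of B cell progenitors sorted from the bone marrow of mice aged 7 to 10 weeks, with 2 libraries in each of 4 groups. In 3 of the groups, pre-proB, proB and preB cells, both Erg alleles were floxed but intact, since these Erg fl/fl controls carried no Cre (Rag1Cre +/+). The group called Erg-deficient here held cells of the pre-proB stage from mice of the genotype Rag1Cre T/+;Erg Δ/Δ, whose Rag1Cre transgene had deleted the floxed alleles from the common lymphoid progenitor onward, so that presence of Cre and loss of Erg cannot be told apart. All sorted cells were B220+ and lacked surface IgM and IgD. The gates of all stages left out cells with NK1.1 or CD11c. Pre-proB cells were CD43+ CD24-, proB cells were CD43+ CD24+, and preB cells were CD43- CD24+.

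Proteins destined for secretion or for the cell surface, the B cell receptor among them, enter the ER through the Sec61 channel, lose their signal peptide to signal peptidase and receive N-linked sugars from oligosaccharyltransferase while they are still being made. Chaperones such as Hspa5 (BiP) and disulfide isomerases then fold them, and chains that fail to fold are sent back to the cytosol by the Hrd1 ubiquitin ligase complex and destroyed. The unfolded protein response adjusts this capacity through membrane sensors, among them Ern1 (IRE1α), which splices the mRNA of Xbp1, and Atf6, which is cut to release a transcription factor. Atf4 and Ddit3 (CHOP) belong to its translational arm. In the B lineage the response is best known from plasma cells, which secrete antibody in bulk, and Xbp1 and ER capacity are also a known feature of plasmacytoid dendritic cells.

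A recurring letter pattern upstream of these genes is the ER stress response element (ERSE), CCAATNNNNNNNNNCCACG, to which Atf6 and NF-Y are known to bind. It was searched on both strands of the 250 bases before the start in RefSeq promoters (GRCm38.p6), where 33 of the 41 members had an entry. It was found in 8 of these 33 members (24.2%), against 35 of 27025 genes with a promoter entry (0.13%). The 8 were Calr, Canx, Creld2, Dnajc3, Hsp90b1, Hspa5, Pdia6 and Syvn1. The shorter ERSE-II, ATTGGNCCACG, was found in Herpud1 alone of the 33 and in 10 of all genes, and no match of ERSE overlapped one of ERSE-II. The C/EBP-ATF core TTGCATCA was also found in Herpud1 alone (3.03% of the members, 0.918% of all genes), and the core TGACGTGG of the unfolded protein response element in 0 of the 33 (0.603% of all genes). The element was searched because it is known from genes of this response, so its higher share among the members tests nothing. A match describes the letters only. These 5 windows, in the gene's direction, are shown because their genes carried the element and took several courses through the stages. Among them, Hspa5 and Dnajc3 both fell to proB and had no change to preB that passed the test. Capitals mark the ERSE or, for Herpud1, the ERSE-II.
Hspa5, chr2:34772013-34772055, plus strand, element from 65 bases before the start: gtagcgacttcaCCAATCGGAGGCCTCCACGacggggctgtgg
Dnajc3, chr14:118937815-118937857, plus strand, element from 105 bases before the start: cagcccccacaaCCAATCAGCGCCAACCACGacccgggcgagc
Canx, chr11:50325788-50325830, minus strand, element from 145 bases before the start: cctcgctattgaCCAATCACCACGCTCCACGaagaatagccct
Syvn1, chr19:6046520-6046562, plus strand, element from 44 bases before the start: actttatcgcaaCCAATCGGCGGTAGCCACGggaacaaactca
Herpud1, chr8:94386365-94386399, plus strand, element from 52 bases before the start: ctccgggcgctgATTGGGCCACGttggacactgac

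Library totals ranged from 15565381 to 18457632 counts, and each member reached at least 9.98 CPM (counts scaled to a common library size, with TMM factors over the 8 libraries) in every library. Erg itself stood at 69.8 and 25.1 CPM in the 2 control pre-proB libraries and at 2.49 and 2.58 CPM in the Erg-deficient ones (log2 fold change -4.23, SE 0.55, edgeR adjusted p = 0.025). The 12 B lineage markers summed to 1355 to 2366 CPM in control pre-proB, 6601 to 6949 in proB, 10010 to 10387 in preB and 838 to 876 in Erg-deficient pre-proB cells. Replicate 1 of the control pre-proB cells held more of all 12 markers than replicate 2, whose level was 0.371 of replicate 1 in the median. The 10 plasmacytoid dendritic cell markers ran the other way, with sums of 15738 to 16779 CPM in control and 17959 to 18475 in Erg-deficient pre-proB cells, 1304 to 1339 in proB and 2753 to 2791 in preB cells. Siglech, a surface lectin that defines plasmacytoid dendritic cells, fell from 3892 and 3794 CPM in control pre-proB to 46.9 and 57.4 CPM in the proB and 11.1 and 11.4 CPM in the preB libraries. In bulk libraries, fewer cells of a type and less RNA per cell cannot be told apart.

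Most members were highest in pre-proB cells. Of the 41, 33 had their highest mean in pre-proB cells among the 3 Erg fl/fl stages, 2 in proB and 6 in preB cells, while 26 were lowest in preB, 12 in proB and 3 in pre-proB cells. Summed over all members, the level was 10811 and 11875 CPM in the pre-proB libraries, 6422 and 6724 in proB and 6261 and 6463 in preB. The proB sum was 57.9% and the preB sum 56.1% of the pre-proB sum, and neither stage overlapped the pre-proB libraries. Per length, as CPM divided by the kilobases of exon (FPKM), the median member stood at 70.05 in pre-proB, 45.8 in proB and 36.0 in preB cells. The chaperone Hsp90b1 (GRP94) was the highest member in each stage, at 634 FPKM in pre-proB, 264 in proB and 351 in preB. Ddit3 was the lowest in pre-proB at 13.1 FPKM, and Ern1 in proB and preB, at 1.61 and 2.20 FPKM.

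**Figure D1:**
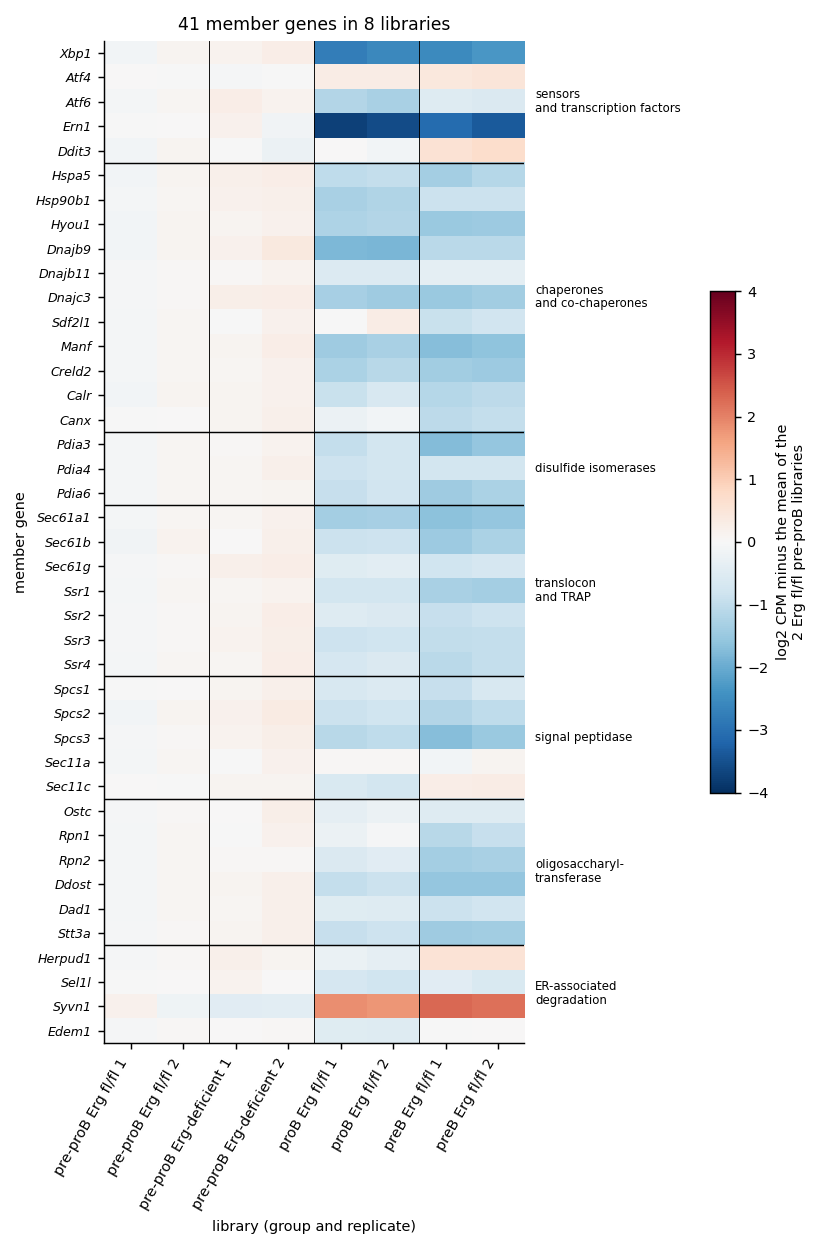
Level of the 41 members (rows, by role) in the 8 libraries (columns), as the difference in log2 CPM from the mean of the 2 Erg fl/fl pre-proB libraries; blue is lower and red higher. Most rows turn blue in the proB and preB columns, Ern1 and Xbp1 most, while Syvn1 is red there and blue in the Erg-deficient columns.

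From pre-proB to proB, 34 of the 41 members fell and 2 rose, with 5 not passing the test. Over all 13650 genes tested by edgeR, 36.8% were lower and 36.2% higher in proB cells at an adjusted p below 0.05, so calls were frequent in both directions. The median log2 fold change was -0.73 over the members and 0.004 over all genes. The libraries of the stages did not overlap, with both proB values below both pre-proB values, for 35 members, against 45.0% of all genes tested. From proB to preB, 19 members fell and 12 rose, with 10 not passing, against 29.9% and 29.0% of all genes; the median was -0.22 over the members. The fall count was 12 without preB replicate 1. Over the full span from pre-proB to preB, 34 members fell and 5 rose (34.1% and 36.5% of all genes), with a median of -0.97. Other lists shifted with these stages: all 10 plasmacytoid dendritic cell markers fell from pre-proB to proB (summed level 8.13% of pre-proB, median gene 1.96%), all 12 B lineage and all 12 proliferation genes rose (the latter from 1549 and 1702 to 7073 and 6922 CPM). Spib, which B cells express too, made up most of the later sums of the dendritic list, at 802 and 718 CPM in proB and 2342 and 2363 CPM in preB cells. To proB, the natural killer list fell in 8 of 9 genes and the T cell list in 7 of 8, while its gene Lck rose. Cd4 (478 and 609 CPM) and Cd8a (113 and 120 CPM) made up most of the T cell sum in the control pre-proB libraries. Cd3d, Cd3e and Cd3g each stood at 6.45 CPM or less there. The myeloid list rose in 5 and fell in 3 of 10 genes. Its proB libraries were uneven, at 191 and 440 CPM in sum, against 470.5 and 434 in pre-proB. The erythroid list, at most 111 CPM in sum, rose in 5 of 6 genes tested. The part of these lists in the members' values was not tested.

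**Figure D2:**
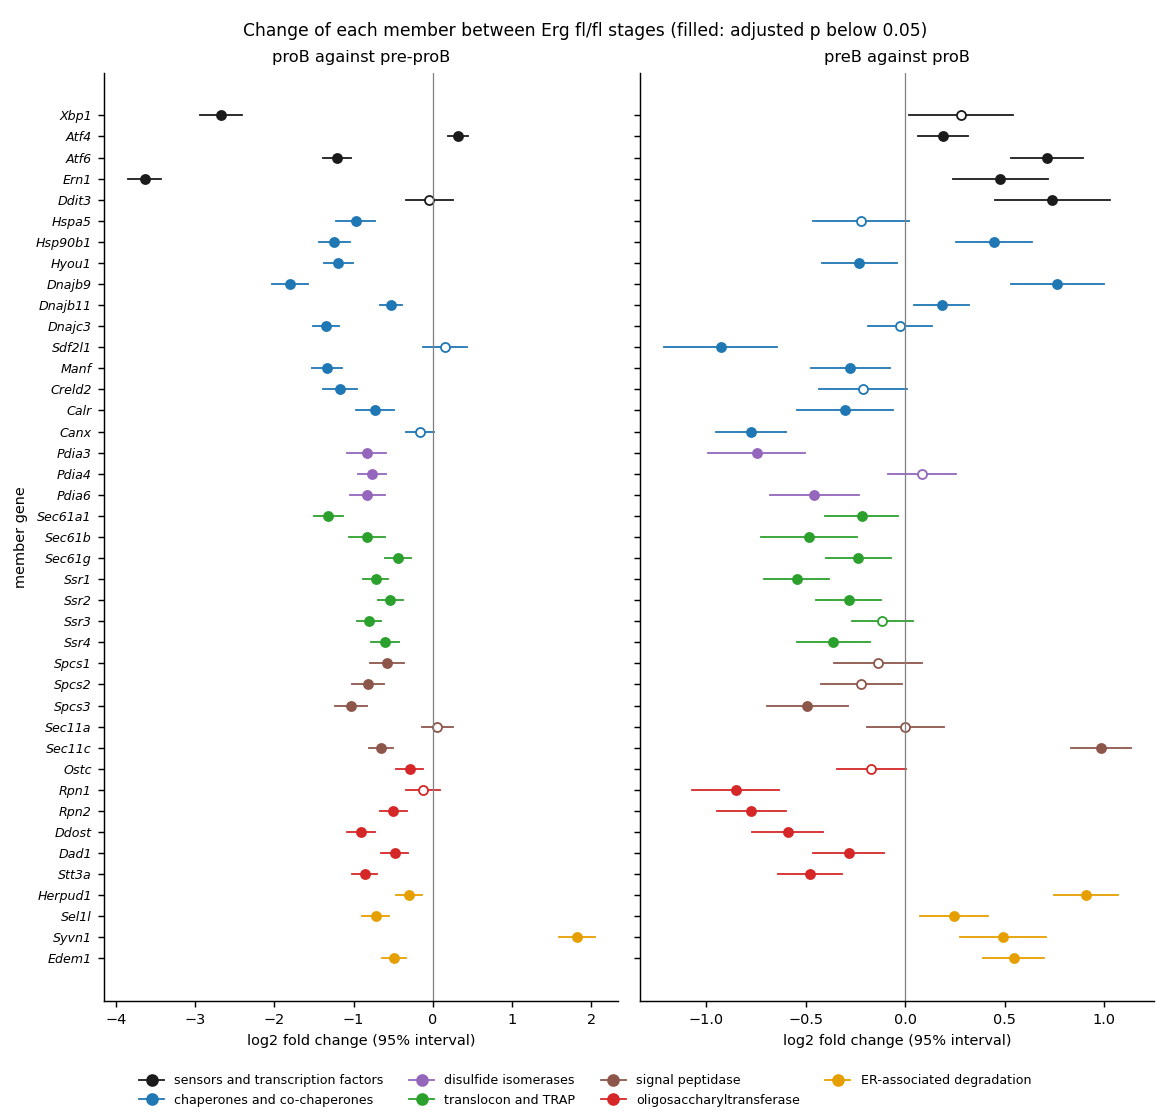
Log2 fold change of each member (points; lines, 95% interval) from pre-proB to proB (left) and from proB to preB (right) in Erg fl/fl cells, coloured by role; filled points passed an edgeR adjusted p of 0.05 and the 2 axes have different ranges. On the left 34 filled points lie below 0, and on the right the sensors and the degradation genes lie above 0 and the oligosaccharyltransferase subunits below it.

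Among the sensors and transcription factors, Ern1 and Xbp1 changed most. Ern1, the sensor whose endonuclease splices Xbp1 mRNA, stood at 165 and 168 CPM in the pre-proB libraries, 12.5 and 13.8 CPM in those of proB and 19.5 and 16.4 CPM in those of preB cells. Xbp1, the transcription factor made from that mRNA, stood at 412 and 481 CPM in the pre-proB libraries, 64.8 and 73.8 CPM in those of proB and 75.7 and 88.3 CPM in those of preB cells. Both genes were high in each pre-proB library and low in each later one. Ern1 fell 12.5-fold to proB (log2 -3.64, SE 0.09, edgeR adjusted p = 1.01e-08) and rose again in preB by 0.48 (SE 0.10, edgeR adjusted p = 0.00426). Xbp1 fell 6.37-fold to proB (log2 -2.67, SE 0.12, edgeR adjusted p = 1.57e-07). Its change from proB to preB, 0.28 with a 95% interval from 0.02 to 0.54, did not pass (edgeR adjusted p = 0.0646), although both preB libraries lay above both proB libraries, and it passed under 5 of 17 other settings. Counts per gene do not separate spliced from unspliced Xbp1 mRNA.

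Atf6, the sensor that becomes a transcription factor once cut in the Golgi, was at 216 and 240 CPM in the pre-proB libraries, 102 and 93.2 CPM in those of proB and 158 and 153 CPM in those of preB cells. It was lowest in proB cells, with no overlap between any of the stages. It fell by 1.21 on the log2 scale to proB (SE 0.08, edgeR adjusted p = 1.74e-06) and rose by 0.71 to preB (SE 0.08, edgeR adjusted p = 0.00012). Atf4, a transcription factor of amino acid supply and stress whose main control lies in translation, rose in small steps, from 120 and 116 CPM in pre-proB to 144 and 146 CPM in the proB and 158 and 164 CPM in the preB libraries. It rose by 0.32 to proB (SE 0.06, edgeR adjusted p = 0.000908) and by 0.19 to preB (SE 0.06, edgeR adjusted p = 0.0174). The second of these steps lost its call with total counts as library sizes, with no filter on low counts, and without either proB library or preB replicate 2 (edgeR adjusted p up to 0.117). Ddit3, a transcription factor tied to cell death under lasting ER stress, was low throughout, at 10.8 and 12.5 CPM in the pre-proB libraries, 11.7 and 10.8 CPM in those of proB and 17.5 and 19.0 CPM in those of preB cells. Its pre-proB and proB libraries overlapped (log2 -0.04, 95% interval -0.34 to 0.26), and it was higher in preB than in proB cells by 0.74 (SE 0.13, edgeR adjusted p = 0.00126). The RefSeq span of Ddit3 overlaps those of Mbd6 by 77 bases and of Mars1 by 71 bases, and reads there could belong to either gene.

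**Figure D3:**
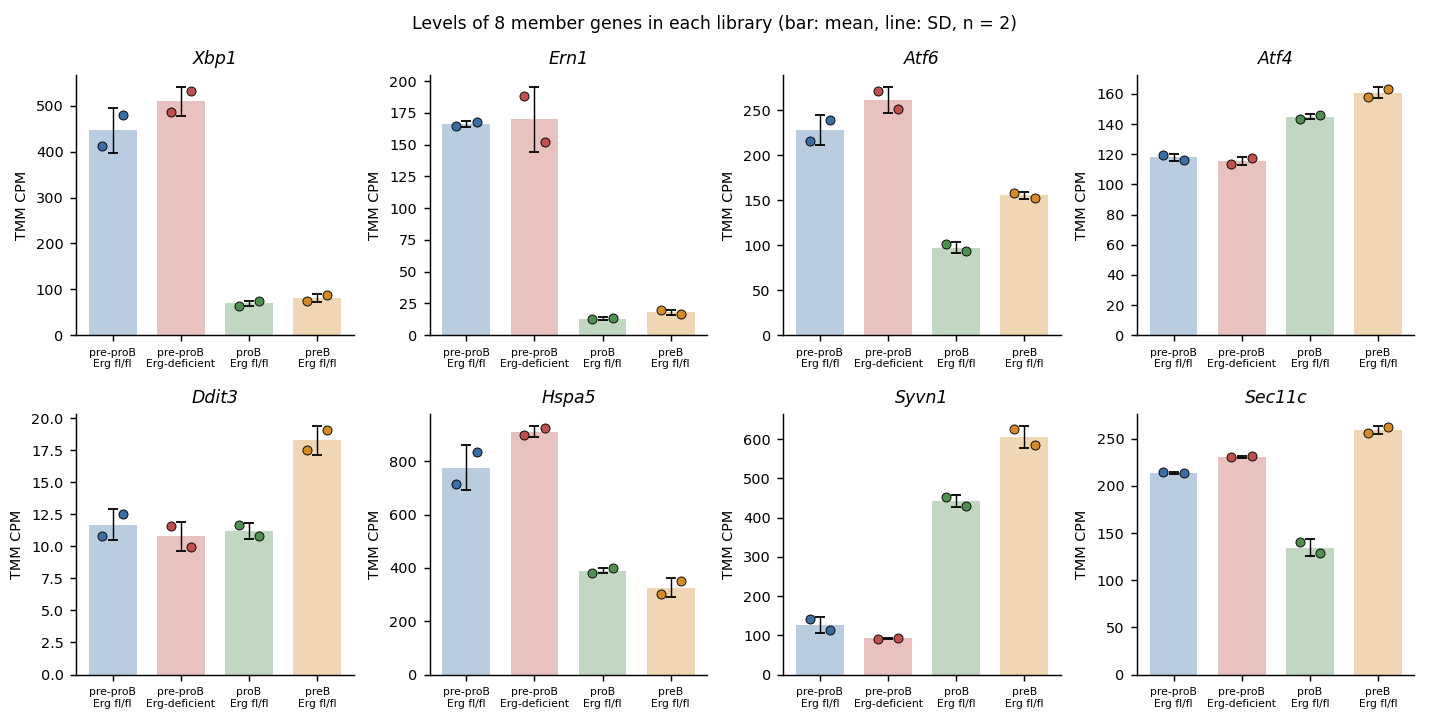
CPM of 8 members in each library (points), with the mean (bar) and SD (line) of the 2 libraries of a group, on linear axes from 0. Xbp1 and Ern1 are high in all 4 pre-proB libraries, Atf6 and Sec11c dip in proB cells, and Syvn1 rises from at most 140.5 CPM in pre-proB to at least 430.5 CPM in proB cells.

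Of the 11 chaperones and co-chaperones, 9 fell from pre-proB to proB and none rose (median -1.17). Hspa5, the ER member of the Hsp70 family that also holds the sensors inactive, went from 716 and 836 CPM in pre-proB to 382 and 398 CPM in the proB and 300.4 and 351 CPM in the preB libraries. Hsp90b1, the ER member of the Hsp90 family, went from 1701 and 1883 CPM to 721 and 774 and then to 991 and 993. Both were higher in each pre-proB library than in any later one, and only Hsp90b1 had a change from proB to preB that passed the test. Hspa5 fell by 0.97 to proB (SE 0.11, edgeR adjusted p = 4.22e-05) and changed by -0.22 to preB (95% interval -0.47 to 0.02, edgeR adjusted p = 0.1), a step that passed under 7 of 17 other settings. Hsp90b1 fell by 1.245 to proB (SE 0.08, edgeR adjusted p = 2.21e-06) and rose by 0.45 to preB (SE 0.08, edgeR adjusted p = 0.00206).

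The co-chaperones of Hspa5 had different courses after proB. Dnajb9 (ERdj4), which directs Hspa5 to Ern1 and to failed chains, was at 67.8 and 79.8 CPM in the pre-proB libraries, 21.4 and 20.5 CPM in those of proB and 34.5 and 34.8 CPM in those of preB cells. It fell most of the chaperone group, by 1.803 (SE 0.10, edgeR adjusted p = 5.69e-07), and rose by 0.77 to preB (SE 0.10, edgeR adjusted p = 0.000306). Dnajc3 (p58IPK), which also inhibits the kinase of the translational arm, was at 264 and 282 CPM in the pre-proB libraries, 109 and 103 CPM in those of proB and 98.5 and 104 CPM in those of preB cells. Its fall of 1.35 to proB (SE 0.07, edgeR adjusted p = 4.35e-07) was followed by a difference of -0.03 from proB to preB (95% interval -0.19 to 0.14). Manf, a secreted ER-stress protein that binds Hspa5, was at 166 and 188 CPM in the pre-proB libraries, 66.2 and 72.4 CPM in those of proB and 54.3 and 57.2 CPM in those of preB cells, a fall of 1.33 to proB (SE 0.08, edgeR adjusted p = 1.33e-06). Hyou1, the nucleotide exchange factor of Hspa5, and Creld2 and Calr fell by 1.19, 1.17 and 0.73, and Dnajb11, with the smallest fall to pass, by 0.52.

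Canx and Sdf2l1 were the 2 chaperones without a call in proB cells, and both were low in preB cells. Canx (calnexin), the membrane lectin that holds glycoproteins during folding, was at 591 and 616 CPM in the pre-proB libraries, 510 and 559 CPM in those of proB and 295 and 313 CPM in those of preB cells. The first step, -0.16 with a 95% interval from -0.33 to 0.02, did not pass, although it did with DESeq2, with all 8 libraries in 1 fit, under the replicate block and without pre-proB replicate 1. The second was a fall of 0.78 (SE 0.08, edgeR adjusted p = 6.65e-05). Sdf2l1, a partner of the Dnajb11 and Hspa5 complex, was at 28.2 and 31.2 CPM in the pre-proB libraries, 29.0 and 36.2 CPM in those of proB and 15.98 and 17.4 CPM in those of preB cells. Its proB libraries overlapped those of pre-proB, and it fell by 0.93 to preB (SE 0.12, edgeR adjusted p = 0.000329), the largest fall of any member at that step. The soluble lectin Calr, which shares its substrates with Canx, fell at both steps (0.73 and 0.30), the second without a call when proB replicate 2 or preB replicate 1 was left out. From proB to preB, 5 chaperones fell and 3 rose (Hsp90b1, Dnajb9 and Dnajb11), the last by 0.18 and with its call lost under 8 of 17 other settings.

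The 3 disulfide isomerases fell together from pre-proB to proB, by 0.77 (Pdia4) to 0.83 (Pdia3). Pdia3 (ERp57), the isomerase that works with Canx and Calr on glycoproteins, was at 634 and 715 CPM in the pre-proB libraries, 346 and 403 CPM in those of proB and 203 and 231 CPM in those of preB cells. Each stage lay below the one before it without overlap, with a fall of 0.75 from proB to preB (SE 0.11, edgeR adjusted p = 0.000466). Pdia6 fell by 0.46 at that step, while the difference of Pdia4 did not pass (0.08, 95% interval -0.09 to 0.26).

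All 7 translocon and TRAP genes fell from pre-proB to proB, by 0.44 (Sec61g) to 1.32 (Sec61a1), and 6 of the 7 fell again to preB cells. Sec61a1, which forms the channel itself, was at 352 and 398 CPM in the pre-proB libraries, 146 and 150.4 CPM in those of proB and 121 and 127 CPM in those of preB cells. Ssr1, the α subunit of the TRAP complex that helps chains into the channel, was at 279 and 305 CPM in the pre-proB libraries, 174 and 176 CPM in those of proB and 119 and 115 CPM in those of preB cells. Both were ordered pre-proB, proB, preB without overlap. The fall of Sec61a1 lay mostly in the first step (by 1.32, SE 0.08, edgeR adjusted p = 1.08e-06, then by 0.22, edgeR adjusted p = 0.0443, a call lost without either proB library or preB replicate 1), whereas Ssr1 fell by 0.72 and then by 0.55 (SE 0.07 for both, edgeR adjusted p = 1.99e-05 and 0.000272). Summed over the 7 genes, proB cells held 55.3% and preB cells 43.9% of the pre-proB level.

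Signal peptidase showed unlike courses for its 2 catalytic subunits. Sec11a and Sec11c are alternative catalytic subunits, and Spcs1, Spcs2 and Spcs3 are accessory ones. Sec11a was at 61.5 and 67.2 CPM in the pre-proB libraries, 66.3 and 66.0 CPM in those of proB and 59.8 and 69.1 CPM in those of preB cells. Sec11c was at 215 and 213 CPM in the pre-proB libraries, 141 and 129 CPM in those of proB and 257 and 262 CPM in those of preB cells. The Sec11a libraries overlapped at every step (0.06, 95% interval -0.14 to 0.25, and 0.00, 95% interval -0.19 to 0.20), while Sec11c was lowest in proB and highest in preB cells. Sec11c fell by 0.65 (SE 0.07, edgeR adjusted p = 2.65e-05) and then rose by 0.98 (SE 0.07, edgeR adjusted p = 1.03e-05), the largest rise of any member from proB to preB, to end 0.33 above pre-proB cells (SE 0.07, edgeR adjusted p = 0.00172). Spcs1, Spcs2 and Spcs3 fell by 0.58, 0.81 and 1.04 to proB, and Spcs3 again by 0.49 to preB. Per length, Sec11c exceeded Sec11a in each stage, at 237 against 36.0 FPKM in pre-proB, 149 against 37.0 in proB and 288 against 36.0 in preB cells.

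Oligosaccharyltransferase subunits fell moderately to proB cells (5 of 6, median -0.49) and further to preB cells (5 of 6, median -0.54). Stt3a, the catalytic subunit that acts on chains still in the channel, was at 304 and 327 CPM in the pre-proB libraries, 167 and 176 CPM in those of proB and 119 and 121 CPM in those of preB cells. Ddost was at 266 and 298 CPM, then 145 and 154, then 95.8 and 97.2. Both declined at each step without overlap, Stt3a by 0.86 and 0.48 (SE 0.07 for both, edgeR adjusted p = 5.62e-06 and 0.000499) and Ddost by 0.90 and 0.59 (SE 0.08 for both, edgeR adjusted p = 9.1e-06 and 0.000313). The ribophorins Rpn1 and Rpn2 are shared structural subunits. Rpn1 was at 194 and 214 CPM in the pre-proB libraries, 174 and 198 CPM in those of proB and 93.8 and 107 CPM in those of preB cells, and Rpn2 at 258 and 282, 182 and 195, and 105 and 110. Rpn1 libraries of pre-proB and proB overlapped (-0.12, 95% interval -0.33 to 0.10, with a call only without pre-proB replicate 1), while Rpn2 fell by 0.50 (SE 0.07, edgeR adjusted p = 0.000287). At the next step Rpn1 fell by 0.85 (SE 0.10, edgeR adjusted p = 0.000124) and Rpn2 by 0.77 (SE 0.08, edgeR adjusted p = 5.89e-05). Ostc changed least at both steps among the genes of this group that fell to proB, by 0.29 and then by 0.17 without passing. The summed level of the 6 was 66.2% of pre-proB in proB and 42.6% in preB cells.

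The 4 genes of ER-associated degradation were the role group whose summed level was not lower after pre-proB, at 117% of pre-proB in proB and 175% in preB cells. Gene by gene, 3 of the 4 fell to proB (median -0.39) and only Syvn1 rose, so the higher proB sum came from Syvn1. All 4 rose from proB to preB. Syvn1 (Hrd1), the ubiquitin ligase of the pathway, was at 140.5 and 113 CPM in the pre-proB libraries, 452 and 430.5 CPM in those of proB and 624 and 586 CPM in those of preB cells. It rose at each step without overlap, 3.53-fold to proB (log2 1.82, SE 0.10, edgeR adjusted p = 5.44e-07) and by 0.49 to preB (SE 0.09, edgeR adjusted p = 0.00228), and was the only member besides Atf4 to rise to proB. Sel1l, the adaptor that holds Syvn1 in its complex, went the other way to proB, with a fall of 0.72 (SE 0.07, edgeR adjusted p = 3.01e-05), and then rose by 0.25 (SE 0.07, edgeR adjusted p = 0.0205), a call lost with total counts, without proB replicate 2 and without preB replicate 1. Mrpl49, whose RefSeq span overlaps that of Syvn1 by 89 bases, was at 35.7 and 37.6 CPM in the pre-proB libraries, 81.9 and 83.7 CPM in those of proB and 106 and 110.0 CPM in those of preB cells. In all, the spans of 9 members overlap those of another counted gene, and the sources used here do not say whether counting used strand.

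Herpud1, a membrane partner of the Syvn1 complex, was at 332 and 346 CPM in the pre-proB libraries, 281 and 262 CPM in those of proB and 498 and 494 CPM in those of preB cells. Edem1, which trims the mannose of failed glycoproteins, was at 167 and 181 CPM, then 124.6 and 121, then 174 and 176. Both were lowest in proB cells, and the preB libraries of Herpud1 lay above those of pre-proB while those of Edem1 overlapped them. Herpud1 fell by 0.30 (SE 0.07, edgeR adjusted p = 0.00413), rose by 0.91 (SE 0.07, edgeR adjusted p = 1.91e-05) and was 0.60 higher in preB than in pre-proB cells (SE 0.07, edgeR adjusted p = 6.98e-05). Edem1 fell by 0.49 and rose by 0.55 (SE 0.07 for both, edgeR adjusted p = 0.000186 and 0.000203), with a net difference of 0.06 (95% interval -0.09 to 0.21). The 8 members with an ERSE did not take 1 course: from pre-proB to proB 6 fell, Syvn1 rose and Canx did not pass.

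Over the full span, the lowest p-values among the falls belonged to Ern1, Xbp1, Dnajc3, Stt3a, Sec61a1, Ddost, Manf and Ssr1. Ern1 in preB cells stood at 11.2% and Xbp1 at 19.1% of pre-proB (log2 -3.16, SE 0.09, and -2.39, SE 0.11, edgeR adjusted p = 1.37e-08 and 2.82e-07). The other 6 stood between 32.8% (Manf) and 41.6% (Ssr1). The 5 that rose were Syvn1 (4.97-fold, edgeR adjusted p = 1.56e-07), Ddit3 (by 0.70), Herpud1 (0.60), Atf4 (0.50) and Sec11c (0.33). Sec11a and Edem1 were the 2 that did not pass.

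Pathway genes beyond the 41 also fell more often than they rose on leaving the pre-proB stage. Of 100 tested, 62 fell and 11 rose from pre-proB to proB (median -0.35), and 29 fell and 34 rose from proB to preB (median 0.00). Over all genes tested, 36.8% fell and 36.2% rose at the first step. At the second, 29.9% fell and 29.0% rose, shares near those of the pathway genes. The largest share of falls to proB was in other N-glycosylation genes (12 of 17, 1 rose) and other folding genes (15 of 22, 4 rose), followed by other signalling genes of the response (8 of 12, 2 rose), ER to Golgi transport (13 of 21, none rose), other degradation genes (8 of 14, 1 rose) and signal recognition and other translocation genes (6 of 14, 3 rose). From proB to preB, 9 of the 12 signalling genes and 9 of the 14 degradation genes rose with 1 falling in each, 7 and 5 of the 14 translocation genes and 2 and 5 of the 21 transport genes rose and fell, 8 of the 17 N-glycosylation genes fell and 2 rose, and 9 of the 22 folding genes fell and 5 rose. The lowest p-values among the falls to proB belonged to Nucb2 (462 to 23.5 CPM on average), the COPII coat gene Sec24d (242 to 14.8) and the ER membrane gene Wfs1 (102 to 6.47). Among the rises they belonged to Ppp1r15b, which reverses the translational block of the response (183 to 283 CPM), Mzb1, an Hsp90b1 partner of B cells (107 to 212), and Calu (110 to 146). From proB to preB, Crebrf, Ero1b and Txndc11 rose with the lowest p-values, as did, among the falls, Mogs of the folding list and Alg8 and Tusc3 of the N-glycosylation list. Pdia5 stood at 43.0 and 49.4 CPM in pre-proB and under the level of 3 counts in both preB libraries. Of the 16 plasma cell markers, 4 of which are also among these pathway genes, 7 rose and 3 fell to proB, with summed levels of 1329 and 1331 CPM in the pre-proB libraries, 2353 and 2711 CPM in those of proB and 2187 and 2261 CPM in those of preB cells. Between proB and preB, 6 rose and 9 fell (median -1.41), and most of the preB sum came from Igkc (1015 and 1125 CPM) and Irf4 (904 and 853 CPM), while Igha went from 584 and 622 to 10.1 and 5.6 CPM. Single markers differed widely in level. Tnfrsf17, a plasma cell receptor, stayed below 1 CPM in every library. Jchain was at 97.4 and 105 CPM in the pre-proB, 212 and 204 CPM in the proB and 7.42 and 1.68 CPM in the preB libraries.

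**Figure D4:**
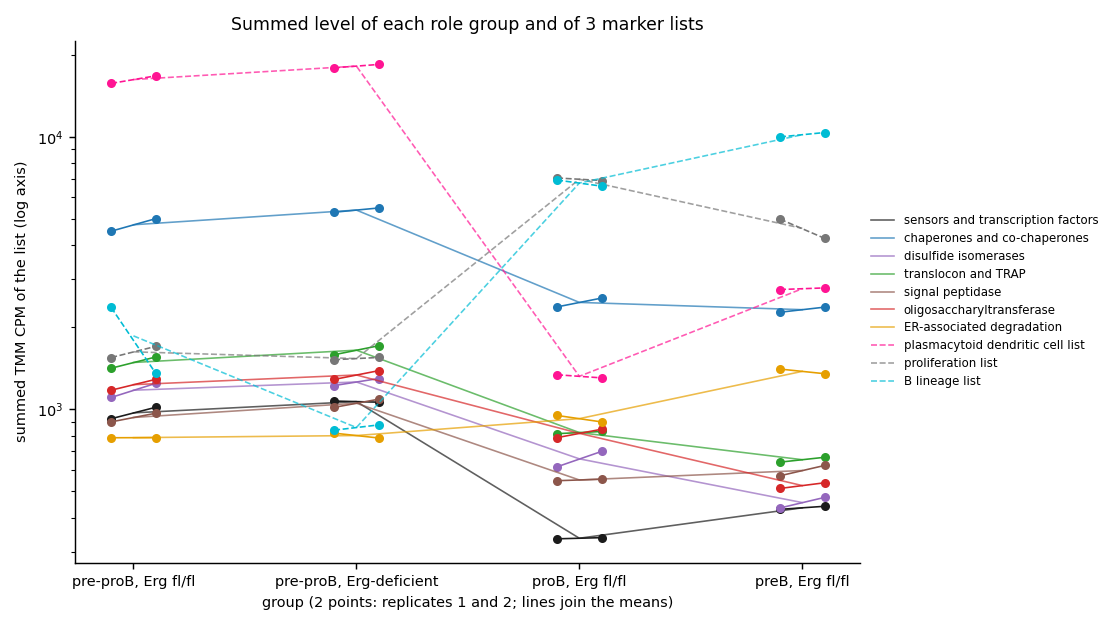
Summed CPM of each role group (solid lines) and of 3 marker lists (dashed lines) in each library, on a log axis; points are libraries and the lines join group means. All role groups but ER-associated degradation, in which 3 of 4 genes fell to proB and Syvn1 rose, are lower in proB and preB than in the pre-proB groups. The plasmacytoid dendritic cell list drops from at least 15738 CPM in pre-proB to at most 2791 CPM in the later stages.

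In Erg-deficient pre-proB cells the members' levels differed little from control. No member passed the edgeR test in either direction (0 of 41), where 0.946% of the 13005 genes tested were lower and 0.215% higher. At an unadjusted p below 0.05, 10 members were higher and 1 lower, against 4.88% and 7.60% of all genes. DESeq2 called 1 member lower, Syvn1, and limma-voom called 0. The fold changes ran from -0.46 to 0.27 on the log2 scale, with a median of 0.12 over the members and 0.01 over all genes, and 38 of the 41 were above 0. Summed over the members, the level was 12294 and 12817 CPM in the Erg-deficient libraries against 10811 and 11875 in the controls, or 111% of control on average.

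The intervals bound what these 4 libraries could show. Xbp1 was at 487 and 532 CPM in Erg-deficient against 412 and 481 in control cells, a difference of 0.19 (95% interval -0.03 to 0.41, edgeR adjusted p = 0.473). Ern1 was at 188 and 152 against 165 and 168 CPM, with overlapping libraries (0.03, 95% interval -0.22 to 0.27). Hspa5 was at 897 and 926 against 716 and 836 CPM, without overlap (0.23, 95% interval 0.02 to 0.44, edgeR adjusted p = 0.365). Atf6, at 272 and 251 against 216 and 240 CPM, differed by 0.19 (95% interval 0.01 to 0.38), Atf4, at 114 and 117 against 120 and 116 CPM, by -0.04 (95% interval -0.18 to 0.11), and Ddit3, at 11.6 and 9.98 against 10.8 and 12.5 CPM, by -0.12 (95% interval -0.49 to 0.24). Ddit3, with few counts, had the widest interval of the members. The largest positive differences by role were those of Dnajb9 (0.27), Sec61g (0.24) and Spcs2 (0.23), each without a call.

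Syvn1 was the member with the largest difference, at 91.1 and 93.4 CPM in Erg-deficient against 140.5 and 113 in control cells. Both Erg-deficient libraries lay below both controls (-0.46, 95% interval -0.72 to -0.21, edgeR adjusted p = 0.116 and 0.00376 before adjustment). The difference was called by DESeq2 and with all 8 libraries in 1 fit, both of which kept the 2 control libraries. Without control replicate 2 the comparison rests on replicate 1 alone, the control library with more RNA of the B lineage markers. The part of these markers in the values of Syvn1 was not tested. Over the 15 other settings the fold change ran from -0.62 to -0.30 and the adjusted p from 0.00503 to 0.401.

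**Figure D5:**
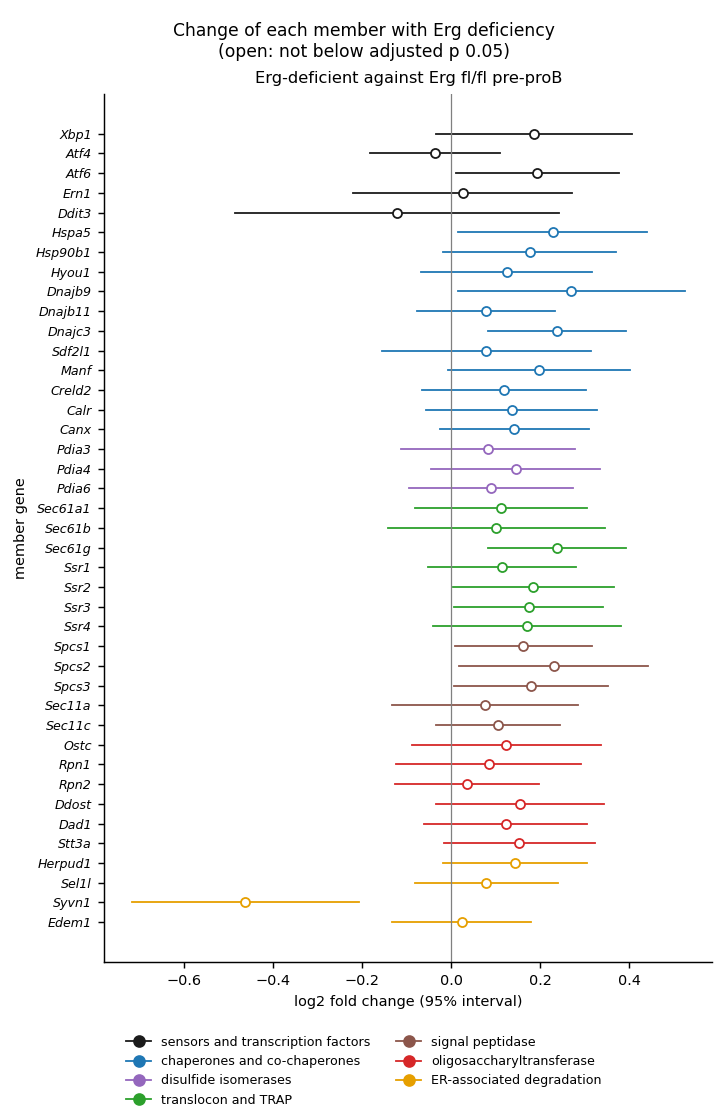
Log2 fold change of each member in Erg-deficient against Erg fl/fl pre-proB cells (points; lines, 95% interval), coloured by role; open points did not pass an edgeR adjusted p of 0.05. All 41 points are open, most lie between 0 and 0.3, and Syvn1 lies apart at -0.46.

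Libraries of the same group also differed in a common direction. In 25 members both Erg-deficient libraries were above both controls and in 1, Syvn1, below, against 23.3% and 21.9% of all genes tested. Between the control libraries themselves, replicate 2 was above replicate 1 for 38 of the 41 members, with a median ratio of 1.10, and in 24 members the order was control replicate 1, control replicate 2, then both Erg-deficient libraries. Replicate 2 was above replicate 1 for 29 members in proB and for 33 in preB cells too. The shares of all genes with these orders of replicates 1 and 2 were not computed. These orders therefore cannot be read as particular to the members. The plasmacytoid dendritic cell list moved alike: 9 of its 10 genes were higher in control replicate 2 than in replicate 1 (median ratio 1.08), and its summed level in Erg-deficient cells was 112% of control, with 0 of the 10 genes called by edgeR (3 higher and 0 lower at an unadjusted p below 0.05). The B lineage list stood at 46.0% of control, with 9 of 12 genes called lower, and the plasma cell list at 33.9%, with 4 of 15 tested called lower. The natural killer list stood at 339%, with 5 of 9 genes called higher. Its sums were small and uneven, at 51.0 and 60.2 CPM in control and 142.5 and 234 in Erg-deficient cells. The myeloid list stood at 86.8%, with 2 of 10 called lower and a median of -0.70. The T cell list stood at 692 and 855 CPM in control and 1502 and 885 in Erg-deficient cells, led by Cd4, with 0 of 8 genes called by edgeR (2 higher and 0 lower at an unadjusted p below 0.05). The part of these lists in the members' values was not tested. Among the other 100 pathway genes tested, 0 were called by edgeR in either direction, with a median of 0.07. At an unadjusted p below 0.05, 10 of them were higher and 4 lower, against 4.88% and 7.60% of all genes.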

How the data were processed

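Total RNA of 8 libraries was sequenced. Per the labels, the submitters' processing notes name CASAVA 1.8.2, Trim Galore, STAR and featureCounts, with the build mm10 (GRCm38); the authors deposited unnormalised counts per Entrez gene of the Rsubread annotation. Symbols were assigned to 25275 of 27179 identifiers. The members and all gene lists were chosen with earlier results of these data known. Genes with at least 0.5 CPM in 2 libraries were kept, scaled by TMM and tested with edgeR 4.0.16 (legacy quasi-likelihood, R 4.3.3), in 1 fit of the 6 Erg fl/fl libraries and 1 of the 4 pre-proB libraries, with Benjamini-Hochberg adjustment over all genes at 0.05. All 41 members passed the filter in both fits. With 2 libraries a group, each test set a difference against the spread between separately sorted samples. That spread was estimated over all groups of the fit and drawn towards that of other genes. FPKM used the exon union of GENCODE vM21. Intervals are 95%, from the fit's standard error. DESeq2 1.42.0, limma 3.58.1, other scalings and filters, and leaving out each library were the alternatives. The scripts were tested on simulated counts. By a fixed rule, values are given for Xbp1, Atf4, Atf6, Ern1, Ddit3 and Hspa5, for up to 8 called members with the lowest p-value per direction and comparison, for the extremes of a role, and for 3 further pathway genes per direction.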

Additional observations from a re-analysis of the deposited data

How the results depend on the processing

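Each comparison was refitted under up to 17 alternatives. For the 2 comparisons with pre-proB cells among Erg fl/fl stages, the number of members called stayed between 35 and 38 (36 as reported) and at 39. From proB to preB it ran from 23 to 36 (31 as reported). Leaving out a library moved the falls at that step from 19 to between 12 (without preB replicate 1) and 23, and the median from -0.22 to between -0.298 and -0.16; total counts as library sizes gave -0.278. The median from pre-proB to proB ran from -0.89 to -0.701 when a library was left out (-0.73 as reported) and that from pre-proB to preB from -1.114 to -0.897. In Erg-deficient cells the count was 0, and 1 (Syvn1, lower) with DESeq2, with all 8 libraries in 1 fit and without control pre-proB replicate 2, so from 0 to 1 over the left-out libraries; the cause was not tested. Of 904 refits of single named genes, 880 kept direction and side of the threshold, 15 gained a call, 5 lost one and 4 changed sign, none of them called: Ddit3 from pre-proB to proB at 0.015 with total counts and between -0.209 and 0.055 (without pre-proB replicate 2) when a library was left out, and Ern1 in Erg-deficient cells at -0.009 with total counts and between -0.139 (without Erg-deficient replicate 1) and 0.173 when a library was left out. Over all genes, same-numbered libraries deviated little together (r of 0.0114 to 0.119 across stages and 0.0102 across genotypes). Among the members, replicate 2 was above replicate 1 for 38 in control pre-proB, 29 in proB and 33 in preB cells. No share over all genes was computed beside these counts. The study's methods describe sorting from 2 mice of each genotype. Whether same-numbered libraries share a mouse is not stated, and the numbers were not taken as pairs. A replicate block gave 37 calls from pre-proB to proB, 35 from proB to preB, 39 from pre-proB to preB and 0 with Erg deficiency. The width of the intervals, with 2 libraries a group, limits how small a difference could be resolved.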
